A study of Mus musculus with 13 samples.

Results

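The GDF and BMP ligands are 8 secreted growth factors, Gdf5, Gdf6, Gdf10, Bmp2, Bmp4, Bmp5, Bmp6 and Bmp7, and their transcripts were followed in the presumptive intervertebral disc (IVD) and vertebrae of E13.5 mouse embryos. Probe sets were taken by exact gene symbol in the array's annotation. This gave 11 of the 45037 probe sets tested, for 7 of the 8 genes: 1 each for Gdf5, Gdf10, Bmp2, Bmp4 and Bmp6, and 3 each for Bmp5 and Bmp7. Gdf6 had none, and nothing is reported for it. Tissue was laser captured from the lumbar region, and RNA was measured on 13 Affymetrix arrays. The controls contributed 3 arrays for each tissue, and the mutants 4 for IVD and 3 for vertebrae. Control embryos were Cre-;Tgfbr2lox/wt, so they carried 1 floxed allele and no Cre. Mutant embryos were Cre+;Tgfbr2lox/lox, with Cre driven by the Col2a promoter and so deleting the type II TGF-β receptor in cells that make type II collagen and in their descendants, not in every captured cell. For the mutant vertebrae the labels spell the locus Tgrbr2lox.lox. Control vertebrae were from the same mice as control IVD. The captured IVD was mainly presumptive annulus fibrosus with a little notochord, and each array started from 50 ng of RNA, amplified over 2 cycles.

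BMPs and GDFs are a branch of the TGF-β superfamily. They are secreted as dimers and bind a complex of type I and type II serine/threonine kinase receptors. For most BMPs this complex phosphorylates Smad1, Smad5 and Smad9. These enter the nucleus with Smad4 and switch on genes such as the Id family. TGF-β itself, whose type II receptor is removed in the mutant, uses Smad2 and Smad3, and both branches share Smad4. Secreted antagonists such as Noggin, Chordin and Gremlin bind the ligands and limit their range. In the axial skeleton, BMPs are best known for driving cartilage and bone formation, and Gdf5 for marking joint-forming tissue.

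A deposited value is the log2 signal of a probe set relative to its own median over the 13 arrays. It places arrays against each other but carries no expression level, so genes are never ranked by level here. Two-sided tests were made with limma over all probe sets with Benjamini-Hochberg adjustment, and calls were made at an adjusted p under 0.05. A second threshold, that of the study, asked for a 2-fold difference or more and an unadjusted p under 0.05. In control IVD 14 of 16 fibrous matrix genes were higher than in control vertebrae (median 1.14) and 12 of 14 cartilage genes lower (median -0.79). Over all genes 8700 of 18193 were higher (median -0.01). The lists were chosen with earlier results of these data known, so these counts are no independent check of the labels. Several arrays carried RNA of neighbouring tissues. Averaged over 10 liver genes, control vertebrae 1 stood at 5.22, control IVD 1 at 5.08, mutant IVD 4 at 3.31 and mutant IVD 3 at 2.52, while no other array exceeded 0.22. Erythroid genes followed in the same 4 arrays (1.39 to 3.42), and skeletal muscle genes stood at 1.86 in control IVD 1 and 2.09 in mutant IVD 4. Averaged over 13 neuronal genes, mutant IVD 3 stood at 2.97 and control vertebrae 3 at 2.27. Mutant IVD 3 also had the lowest mean of 16 fibrous matrix genes in its group, at -1.22 against 0.58 to 1.29 in the other 3 mutant IVD arrays. Xist was between -0.04 and 1.81 in all 6 control arrays, mutant IVD 3 and mutant vertebrae 3, and between -6.88 and -5.83 in the other 5 mutant arrays, so embryo sex differed between the genotypes. The part of these differences in the results below was not tested, except where a value without the arrays is given. Tgfbr2 itself, as the mean of its probe sets, differed by 0.11 (standard error 0.17) between mutant and control IVD and by -0.24 (standard error 0.18) between mutant and control vertebrae. Which exons these probes cover was not analysed here.

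Promoter sequence is shown for Gdf10 and Bmp6, the ligands whose mutant difference, or its difference between the tissues, passed the threshold of the study. It covers the 250 bases before the transcription start (RefSeq, GRCm38.p6), is written 5′ to 3′ on the strand of the gene, and the capitals mark a Smad box, CAGAC or, on the other strand, GTCTG.
Gdf10, chr14:33923337-33923586, plus strand: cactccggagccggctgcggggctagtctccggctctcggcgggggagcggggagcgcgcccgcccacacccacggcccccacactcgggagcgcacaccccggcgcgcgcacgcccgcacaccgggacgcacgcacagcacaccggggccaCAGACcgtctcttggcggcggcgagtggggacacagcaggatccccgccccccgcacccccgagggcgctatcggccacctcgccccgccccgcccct
Bmp6, chr13:38345466-38345715, plus strand: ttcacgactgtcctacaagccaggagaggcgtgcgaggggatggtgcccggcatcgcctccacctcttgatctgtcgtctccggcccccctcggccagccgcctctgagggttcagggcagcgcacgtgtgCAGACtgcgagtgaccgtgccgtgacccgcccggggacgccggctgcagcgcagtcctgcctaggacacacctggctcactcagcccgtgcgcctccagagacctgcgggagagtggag
Both windows hold 1 such box, at position -98 for Gdf10 and -119 for Bmp6. The same 5 letters stand in 42.19% of 32851 mouse promoter windows of this length, so a match is common, and it is given as a description of the sequence only. GGCGCC, a GC-rich element read by BMP Smads, was in neither window, and 9.586% of all windows hold it. Promoters of Bmp4 and Bmp5 were also at hand. That of Bmp5 held 1 Smad box and that of Bmp4 none.

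Gdf5, a ligand best known for its stripe of expression across future joints, had the largest difference of the 11 probe sets between the control tissues. Its values were 2.01, 3.23 and 2.82 in control IVD and -0.57, 0.00 and -0.61 in control vertebrae. The ranges did not overlap, and every control IVD array was at least 2.01 above the array median. In the control mice, taking arrays of the same number as the same mouse, IVD exceeded vertebrae by 2.58, 3.23 and 3.43. Mutant IVD gave 2.58, 2.45, -1.07 and 0.76, and mutant vertebrae gave -0.07, -0.99 and -0.78. The mutant IVD arrays therefore split, with 2 inside the range of control IVD, 1 below it and 1, mutant IVD 3, as low as the vertebrae. Group means ran from 2.69 ± 0.62 (SD, n = 3) in control IVD through 1.18 ± 1.71 (SD, n = 4) in mutant IVD and -0.39 ± 0.34 (SD, n = 3) in control vertebrae to -0.61 ± 0.48 (SD, n = 3) in mutant vertebrae.

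Between the control tissues Gdf5 differed by 3.08 on the log2 scale, an 8.45-fold difference (standard error 0.77). In the limma fit of all arrays without a block the adjusted p was 1 and the unadjusted p was 0.0017. In limma on the control arrays alone, also without a block, the standard error was 0.35 and the adjusted p 0.247. With the array number as a block over all arrays the standard error was 0.75, and Gdf5 was not called. When the mouse entered as a random block, in a fit of the control arrays, the standard error was 0.23 and the adjusted p 0.0251. With the mouse as a fixed block it was 0.0388. Gdf5 was the only ligand probe set called with either block, where 0.0933% and 0.0711% of all probe sets were called. As in every comparison of captured tissue here, fewer cells of a type and less RNA per cell cannot be told apart.

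Between mutant and control IVD, Gdf5 differed by -1.51 (standard error 0.72, 95% interval -3.07 to 0.06, unadjusted p = 0.0577 in limma), which did not pass either threshold. Leaving out arrays moved it both ways. It was -0.76 without mutant IVD 3 and -0.51 without the 4 arrays that carry liver transcripts, and it was -1.97 without mutant IVD 1, -1.93 without mutant IVD 2, -1.85 without control IVD 1 and -1.78 with array weights. The last 4 values passed the threshold of the study. In the vertebrae the mutant difference was -0.22 (standard error 0.77). Within the mutant, IVD exceeded vertebrae by 1.79 (standard error 0.72, adjusted p = 0.545). That difference was 2.54 without mutant IVD 3 (adjusted p = 0.0586) and 3.13 without the 4 liver-bearing arrays, where it was called (adjusted p = 0.0346). Of the mutant IVD, the fit without the 4 liver-bearing arrays kept only arrays 1 and 2, with Gdf5 at 2.58 and 2.45. It left out mutant IVD 3 and 4, at -1.07 and 0.76, and array 1 of each control tissue. The interaction, the mutant difference in IVD minus that in vertebrae, was -1.29 (standard error 1.05, unadjusted p = 0.244 in limma), so an unequal effect of the genotype on Gdf5 in the 2 tissues was not shown.

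**Figure D1:**
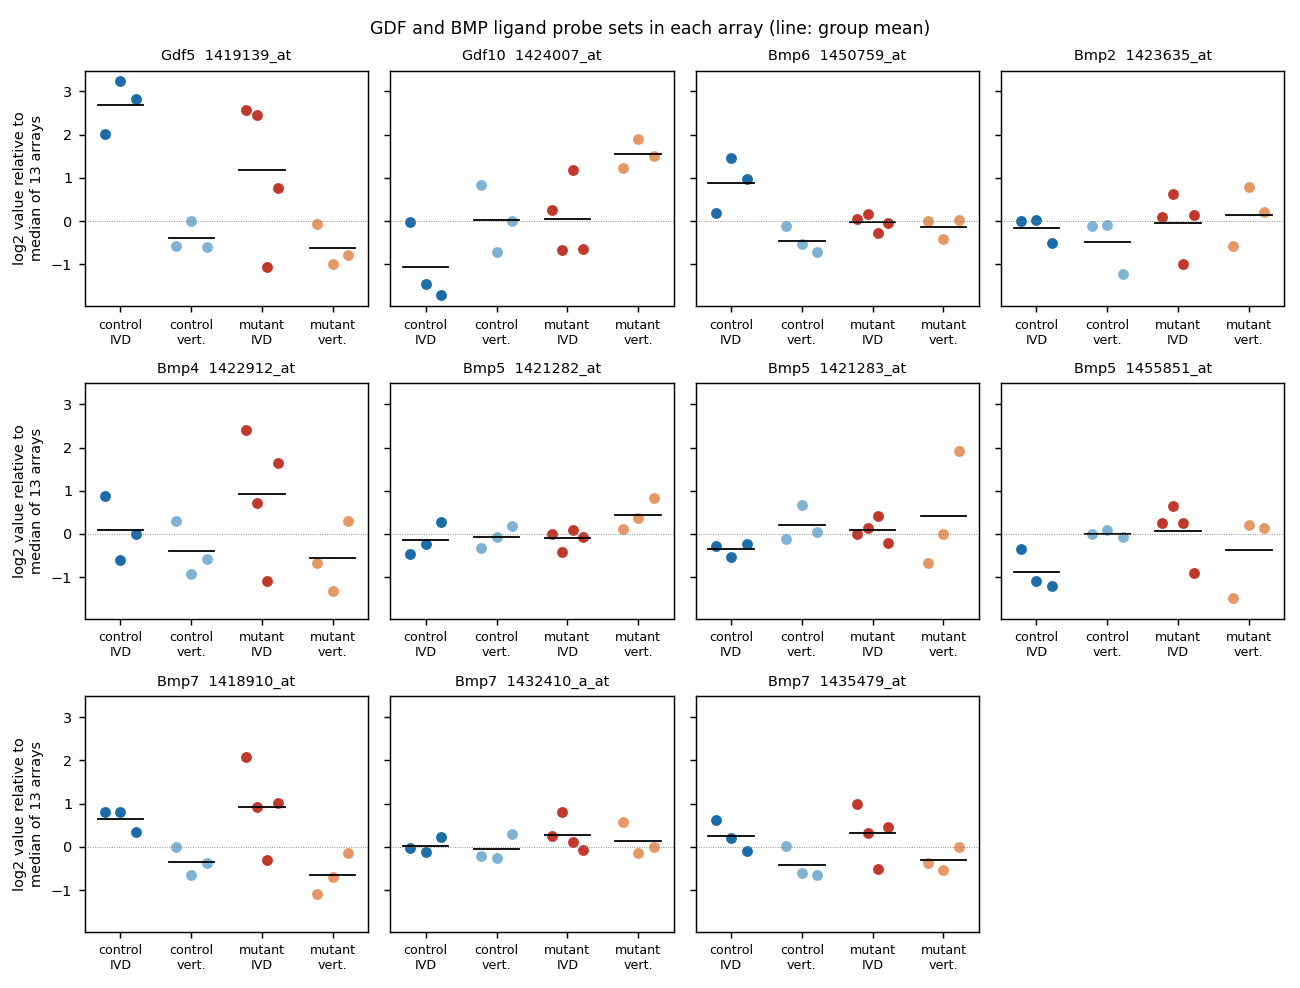
Each panel is 1 ligand probe set and each point 1 array, with the log2 value relative to the median of the 13 arrays on the vertical axis, the same scale in all panels, and a line at each group mean. Gdf5 is high in the 3 control IVD arrays (2.01 to 3.23) and split in mutant IVD (-1.07 to 2.58), Gdf10 is highest in the 3 mutant vertebrae arrays (1.22 to 1.90), and Bmp6 is highest in control IVD.

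Gdf10, also called BMP3B, is a divergent member of the family, close in sequence to Bmp3. Its mean was highest in mutant vertebrae, at 1.54, near the array median in control vertebrae and mutant IVD, at 0.04 in each, and lowest in control IVD, at -1.07. Mutant vertebrae gave 1.22, 1.90 and 1.51, and control vertebrae 0.82, -0.72 and 0.00, and these ranges did not overlap. Mutant IVD gave 0.26, -0.66, 1.18 and -0.63, and control IVD -0.02, -1.46 and -1.72. Every mutant IVD array but mutant IVD 3 and mutant IVD 1 lay within the control IVD range.

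The mutant vertebrae exceeded the control vertebrae by 1.5 for Gdf10, a 2.84-fold difference (standard error 0.56, 95% interval 0.28 to 2.73, unadjusted p = 0.0200 and adjusted p = 0.998 in limma). It passed the threshold of the study and not the adjusted one. It also missed the study's threshold without control vertebrae 2 (1.13), without mutant vertebrae 2 (1.33) and in the unequal variance test that the study's methods name. In the IVD the mutant difference was 1.10 (standard error 0.52, unadjusted p = 0.0572). It was 0.72 without mutant IVD 3. It passed the threshold of the study without control IVD 1 (1.63), without mutant IVD 2 (1.34), without mutant IVD 4 (1.33), without the 4 liver-bearing arrays (1.39), with array weights (1.25) and with the array number as a block (1.33). The interaction was -0.40 (standard error 0.77), with a 95% interval from -2.08 to 1.27, so neither an equal nor an unequal effect in the 2 tissues can be read from it.

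Between tissues, Gdf10 was lower in IVD in both genotypes. The control difference was -1.10 (standard error 0.56, unadjusted p = 0.0732 in limma), with same-number differences of -0.85, -0.74 and -1.72. It was -0.71 without control vertebrae 1, where it missed the threshold of the study. It was -1.62 without control IVD 1, -1.48 without control vertebrae 2 and -1.23 without the 4 liver-bearing arrays. In each of these latter fits the control difference passed that threshold. It passed that threshold also with the mouse as a block, with an unadjusted p of 0.0148 and an adjusted p of 0.330 for the random block and 0.0031 and 0.210 for the fixed one. Within the mutant the difference was -1.5 (standard error 0.52, unadjusted p = 0.0143, adjusted p = 0.446), and the mutant ranges did not overlap, with 1.18 as the highest IVD value and 1.22 as the lowest vertebrae value.

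Bmp6, a ligand of the group that also holds Bmp5 and Bmp7 and is made by maturing chondrocytes, was highest in control IVD. Its values there were 0.18, 1.46 and 0.98, against -0.10, -0.52 and -0.73 in control vertebrae. Mutant IVD gave 0.06, 0.17, -0.28 and -0.05, all under the lowest control IVD value, though the nearest pair was 0.17 and 0.18. Mutant vertebrae gave 0.00, -0.42 and 0.02. The 7 mutant arrays thus lay in a narrow band from -0.42 to 0.17, below control IVD and over the upper part of the control vertebrae.

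The difference of Bmp6 between control IVD and control vertebrae was 1.32, or 2.50-fold (standard error 0.29, unadjusted p = 0.0007, adjusted p = 0.996 in limma). In the unequal variance test the standard error was 0.42 and the unadjusted p 0.0526, so the difference missed the study's threshold. By same-number arrays it was 0.28, 1.98 and 1.71, smallest in the pair of arrays that carried liver transcripts, and it was 1.85 without the 4 liver-bearing arrays. With the mouse as a random block the adjusted p was 0.227. Mutant IVD was below control IVD by -0.90 (standard error 0.27, 95% interval -1.49 to -0.30, unadjusted p = 0.0066, adjusted p = 1), which was 1.86-fold and so short of the study's threshold. The unequal variance test gave this difference a standard error of 0.39 and an unadjusted p of 0.131. Without control IVD 1 this was -1.25, and without the 4 liver-bearing arrays it was -1.11. It was -1.33 with quantile normalization and -1.14 with array weights. In each of these settings the difference passed the study's threshold. Without control IVD 2 it was -0.60. Mutant vertebrae differed from control vertebrae by 0.32 (standard error 0.29). The interaction of -1.22 (standard error 0.40, unadjusted p = 0.0104, adjusted p = 1) was the one ligand interaction past the study's threshold, and it was -0.92 without control IVD 2. Between the mutant tissues Bmp6 differed by 0.11 (95% interval -0.49 to 0.71).

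Bmp4, which patterns mesoderm and induces cartilage, varied widely among arrays of 1 group, with an SD of 1.51 in mutant IVD. Its values were 0.87, -0.59 and 0.00 in control IVD, 0.31, -0.94 and -0.58 in control vertebrae, 2.41, 0.71, -1.10 and 1.65 in mutant IVD, and -0.68, -1.33 and 0.30 in mutant vertebrae. No pair of groups was separate. Mutant IVD held both the highest array of all 13 and, in number 3, the second lowest. The mutant IVD exceeded control IVD by 0.83 (standard error 0.71) and mutant vertebrae by 1.48 (standard error 0.71, unadjusted p = 0.0590 in limma). The second of these was 2.16 without mutant IVD 3 (adjusted p = 0.185) and 0.99 without mutant IVD 1. Between the control tissues the difference was 0.49 (standard error 0.76), though IVD was above vertebrae in each same-number pair, by 0.56, 0.34 and 0.58.

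Bmp2, a potent inducer of bone and cartilage, showed no separation of any groups. It spanned -0.51 to 0.02 in control IVD, -1.21 to -0.10 in control vertebrae, -1.0 to 0.63 in mutant IVD and -0.58 to 0.80 in mutant vertebrae, so all 4 ranges overlapped. Its differences were 0.31 between the control tissues, 0.13 between mutant and control IVD, 0.62 between mutant and control vertebrae and -0.18 between the mutant tissues, with standard errors of 0.42 to 0.45. An interval of -0.79 to 1.05 for mutant against control IVD leaves differences of up to 2-fold in view.

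Bmp7, a ligand of skeletal and kidney development, had 3 probe sets that did not tell the same story. Probe sets 1418910_at and 1435479_at ran together over the 13 arrays (r = 0.92), while 1432410_a_at followed neither (r = 0.10 with each). On 1418910_at control IVD gave 0.81, 0.81 and 0.33 and control vertebrae 0.00, -0.66 and -0.37, and the ranges did not overlap. Mutant IVD gave 2.08, 0.91, -0.31 and 1.02, and mutant vertebrae -1.10, -0.70 and -0.15. Mutant IVD 3 was the only mutant IVD array within the range of the mutant vertebrae.

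The difference between control tissues on 1418910_at was 0.99 (standard error 0.47, unadjusted p = 0.0559 in limma). Between the mutant tissues it was 1.57, or 2.98-fold (standard error 0.44, unadjusted p = 0.0037, adjusted p = 0.317), the smallest adjusted p of any ligand in the fit of all arrays without a block. Without mutant IVD 3 it was 1.99 with an adjusted p of 0.0397, and so was called. Mutant and control IVD differed by 0.27 (standard error 0.44), and the interaction was 0.58 (standard error 0.64). The second probe set, 1435479_at, gave smaller differences of the same sign between the tissues, 0.67 in the controls and 0.62 in the mutants, and 1432410_a_at gave 0.08 and 0.13. With the 3 probe sets averaged, the difference between the mutant tissues was 0.77 (standard error 0.26).

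Bmp5, the gene of the mouse short ear mutation and a ligand of cartilage condensations, also had 3 probe sets. They agreed in part: 1421283_at had r = 0.60 with 1421282_at and 0.56 with 1455851_at, and the other pair had r = 0.00. Probe set 1455851_at was lower in control IVD, at -0.34, -1.08 and -1.21, than in control vertebrae, at 0.00, 0.08 and -0.06, without overlap. Mutant IVD was at 0.25, 0.64, 0.26 and -0.91 and mutant vertebrae at -1.47, 0.21 and 0.14. Its tissue difference was -0.88 in the controls (standard error 0.46, unadjusted p = 0.0815 in limma) and 0.44 in the mutants (standard error 0.43). The mutant difference in IVD was 0.93 (standard error 0.43, unadjusted p = 0.0521). The interaction was 1.32 (standard error 0.63, unadjusted p = 0.0603, adjusted p = 1), and with the 3 probe sets averaged it was 0.36.

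Probe set 1421283_at was also separate in the control tissues, at -0.52 to -0.24 in IVD and -0.11 to 0.67 in vertebrae, and separate between mutant IVD, at -0.20 to 0.42, and control IVD. These differences were -0.55 (standard error 0.50) and 0.44 (standard error 0.46). Mutant vertebrae 3 had the highest Bmp5 value of all, 1.91 on this probe set. On 1421282_at mutant IVD, at -0.41 to 0.10, lay below mutant vertebrae, at 0.11 to 0.83, by -0.54 (standard error 0.23, unadjusted p = 0.0367, adjusted p = 0.573). The gene mean of Bmp5 differed by -0.14 (standard error 0.30) in that comparison.

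**Figure D2:**
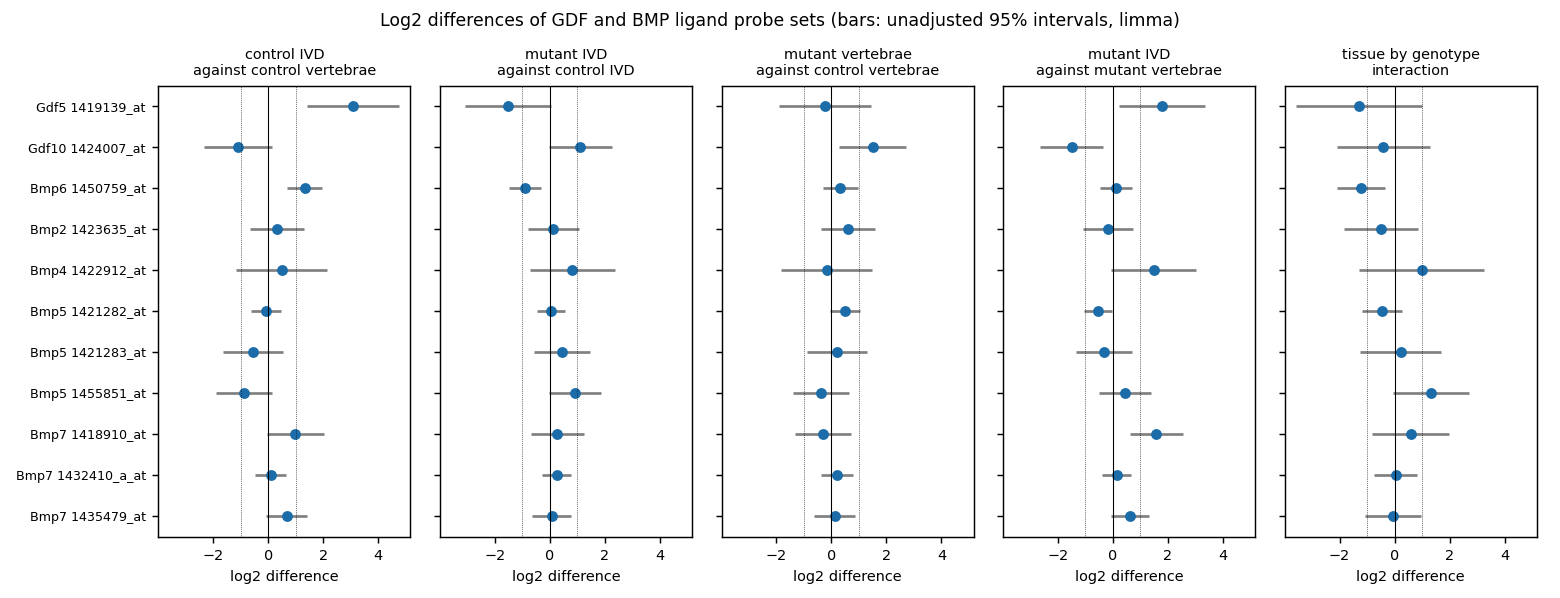
Log2 difference (horizontal axis) of each ligand probe set in the 4 comparisons and the interaction, as points with unadjusted 95% intervals from limma, and dotted lines at 2-fold. Gdf5 and Bmp6 stand clear of 0 between the control tissues, Gdf10 does so between the vertebrae (0.28 to 2.73), and most other intervals span 0.

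Counted over the 11 probe sets, control IVD against control vertebrae gave 7 higher and 4 lower, with a median difference of 0.31 against -0.02 over all probe sets. None passed an adjusted p under 0.05 in limma without a block, as for 0% of all probe sets, and 2 passed an unadjusted p under 0.05, as did 2.45% of all. These were Gdf5 and Bmp6, which were also the ones at least 2-fold higher by the study's threshold, where 0.511% of all probe sets stood (and 0.36% on the lower side, where no ligand stood). Ranges did not overlap for 5, which were Gdf5, Bmp6 and 1 probe set of Bmp7 above and 2 of Bmp5 below, against 7.44% of all probe sets in either direction. Between mutant and control IVD 9 were higher and 2, Gdf5 and Bmp6, lower, with a median of 0.25 against 0.05. None passed the adjusted threshold (0% of all) or that of the study (0.469% higher and 0.175% lower among all), 1 had an unadjusted p under 0.05 against 3.13% of all, and 2 did not overlap against 4.61% of all.

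Between mutant and control vertebrae 7 were higher and 4 lower, with a median of 0.20 against 0.05. Gdf10 alone passed the study's threshold, where 0.195% of all probe sets were higher and 0.322% lower. It was also the 1 that did not overlap, against 5.56% of all, and none passed the adjusted threshold (0% of all), with 1 at an unadjusted p under 0.05 against 2.61% of all. Between mutant IVD and mutant vertebrae 7 were higher and 4 lower, with a median of 0.13 against -0.02. The study's threshold was passed upward by Gdf5 and a Bmp7 probe set and downward by Gdf10, against 1.78% higher and 0.802% lower among all. None was called at the adjusted threshold in limma (0.0155% of all were), 4 had an unadjusted p under 0.05 against 8.07% of all, and 2 did not overlap against 6.63% of all. For the interaction 5 were above 0 and 6 below, with 1 past the study's threshold downward, against 0.442% upward and 0.147% downward among all, and none past the adjusted one (0% of all), with 1 at an unadjusted p under 0.05 against 1.37% of all. The unequal variance test called no probe set of the array in any of the 4 comparisons. Probe sets of 1 gene share their transcript and are not independent, and the comparisons share their control or mutant arrays.

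Mutant IVD 3 was the lowest of the 4 mutant IVD arrays for 6 of the 11 probe sets, those of Gdf5, Bmp2, Bmp4, Bmp6 and 2 of Bmp7, and the highest for 3, those of Gdf10 and 2 of Bmp5. Its neuronal mean was 2.97, its liver mean 2.52 and its fibrous matrix mean -1.22, where mutant vertebrae had fibrous matrix means of -1.42, -0.87 and 0.05. Its cartilage mean was 0.07, against -0.50, -0.71 and -1.56 in the other mutant IVD arrays and 0.45 to 1.11 in mutant vertebrae. Mutant IVD 3 was also the only mutant IVD array with Xist present, at 0.87 against -6.88 to -6.30 in the others. Embryo sex and these tissues cannot be told apart in its ligand values, and the part of either was not tested.

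**Figure D3:**
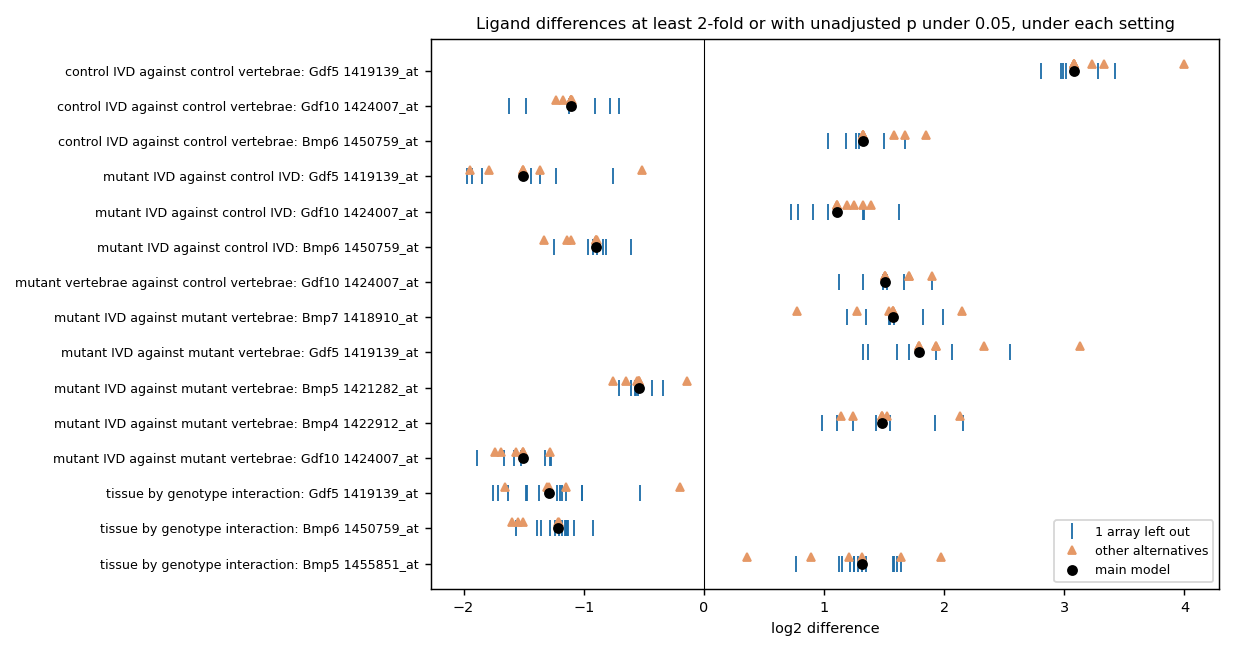
Each row is 1 ligand difference of at least 2-fold or with an unadjusted p under 0.05, in log2 units, with the fit of all arrays as a black point, fits with 1 array left out as ticks and other settings as triangles. No row crosses 0, though the rows were picked by size or p in the same data. Gdf5 between the control tissues ranges from 2.81 to 3.99, and Gdf5 between mutant and control IVD from -1.97 to -0.51.

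The other genes of the pathway were taken from lists and measured as the mean of all probe sets of a gene. Of the remaining GDF and BMP ligands 8 of 13 were measured, and none passed either threshold in any comparison. Their medians were 0.02 between the control tissues, -0.01 between mutant and control IVD, 0.14 between the vertebrae and -0.11 between the mutant tissues. In the vertebrae all 8 were higher in the mutant, in a comparison where 10211 of 18193 genes were higher. Between the control tissues their smallest p belonged to Bmp10, at 0.27 (standard error 0.15), and over the 4 comparisons to Gdf9, at -0.39 between the mutant tissues (standard error 0.20).

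Receptors and coreceptors were measured for all 13 listed genes. Rgmb, a membrane-anchored BMP coreceptor also called Dragon, was higher in control IVD, with 0.58, 1.18 and 0.43 against -0.19, -0.16 and -0.91 in control vertebrae. It differed by 1.15 (standard error 0.39, unadjusted p = 0.0119 in limma) between the control tissues and by 1.25 (standard error 0.36, unadjusted p = 0.0050, adjusted p = 0.322) between the mutant tissues. In mutant IVD it was at 1.29, 1.11, -0.42 and 0.83, with number 3 again in the range of the vertebrae. Bambi, a decoy receptor without a kinase that dampens BMP and TGF-β signals, was lower in control IVD by -1.02 (standard error 0.40, unadjusted p = 0.0244). Acvr2a, a type II receptor for activins and BMPs, was higher there by 0.66 (standard error 0.18, unadjusted p = 0.0036), under 2-fold. Between mutant and control IVD 10 of the 13 were higher with a median of 0.07, and none passed a threshold. Over all genes 10582 of 18193 were higher there, with a median of 0.04.

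The Smads of the BMP branch and their ubiquitin ligases, 8 of 8 measured, passed no threshold in any comparison. Over all genes 0.434% to 1.91% passed that of the study by comparison, so a count of 0 is near the background for this and the other short lists. Smad6, the inhibitory Smad that BMPs induce, differed by 0.68 (standard error 0.69) between the control tissues and by -0.91 (standard error 0.65) between mutant and control IVD. Smad1, which carries the signal to the nucleus, differed by 0.40 (standard error 0.25) between mutant and control IVD.

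Among secreted antagonists and modulators, 18 of 19 measured, Bmper had the largest difference. Bmper, the vertebrate crossveinless-2, binds BMPs outside the cell and can raise or lower their activity. It gave -2.28, -2.87 and -1.95 in control IVD and 0.46, 0.21 and 0.00 in control vertebrae, without overlap, a difference of -2.59 (standard error 0.65, unadjusted p = 0.0017 in limma). Mutant IVD gave -1.86, -0.75, 1.01 and -2.18, and mutant vertebrae 0.49, 1.54 and 1.24. It was higher in mutant than in control IVD by 1.42 (standard error 0.60, unadjusted p = 0.0359), with mutant IVD 3 the array farthest from the controls, and lower in mutant IVD than in mutant vertebrae by -2.03 (standard error 0.60, adjusted p = 0.328). Sostdc1, an antagonist of BMP and Wnt signals, was higher in mutant IVD than in control IVD by 0.69 (standard error 0.27, unadjusted p = 0.0249), and than in mutant vertebrae by 1.01 (standard error 0.27, adjusted p = 0.274). Fstl1, a follistatin-related secreted protein, exceeded the mutant vertebrae by 1.03 (standard error 0.47). Chrd, which encodes Chordin, differed by 0.77 (standard error 0.36) between the control tissues, under 2-fold. Of the 18, 13 had a positive difference between the control tissues, as did 8700 of all 18193 genes. Their median was 0.13 against -0.01 over all genes.

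Response genes, 14 of 15 measured, passed neither threshold in any comparison, a count near that background. Id1, a direct BMP target that blocks differentiation factors, differed by 0.72 (standard error 0.44) between the control tissues, and Id3, its relative, by 0.89 (standard error 0.38, unadjusted p = 0.0392 in limma) between mutant and control IVD. In mutant against control IVD 12 of the 14 were higher, with a median of 0.12, where the median of all genes was 0.04 and 10582 of 18193 were higher. In mutant against control vertebrae 11 of the 14 were higher, with a median of 0.24 against 0.03.

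**Figure D4:**
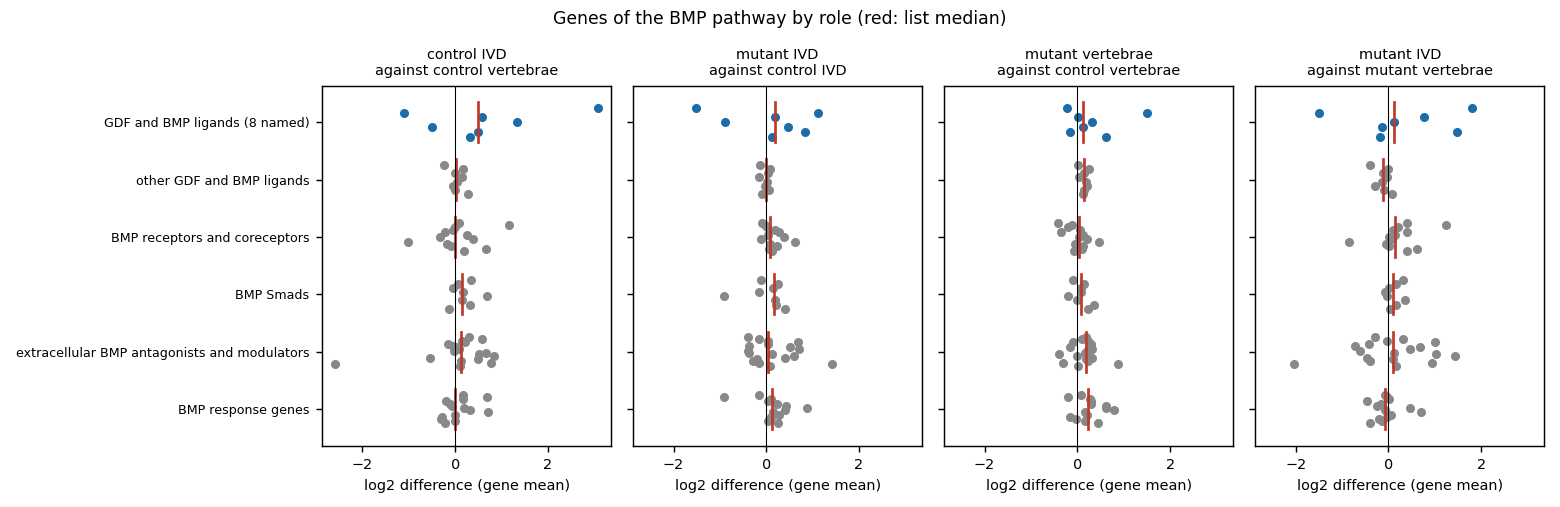
Log2 differences of gene means (horizontal axis) for the ligands (blue) and the other BMP pathway lists (grey) in the 4 comparisons, 1 point a gene, with a red line at each list's median. Gdf5 (3.08) and Bmper (-2.59) lie farthest out between the control tissues, and list medians stay between -0.11 and 0.49 throughout.

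The likeness of patterns over the 13 arrays was described with Pearson's r to each of 18192 other genes. Arrays share group, amplification and the neighbouring tissues named above, so r describes these 13 arrays only. Gdf5 was most like Gna14, a G protein subunit (r = 0.97), Hs3st3a1, a heparan sulfate sulfotransferase (r = 0.97), and Hhip, the Hedgehog-binding membrane protein (r = 0.96). Gdf10 was most like Pcdh17, a protocadherin (r = 0.93), Gadd45g (r = 0.90) and Saa1 (r = 0.88). Bmp6 was most like Arhgap24 (r = 0.94), Dmkn (r = 0.87) and Hecw2 (r = 0.87). Bmp7 and Bmp4 shared Adamtsl1, a secreted matrix protein, among their likest genes (r = 0.98 and 0.90). Bmp7 was further most like Smoc1, a secreted matricellular protein (r = 0.95), and Cdh4 (r = 0.95), and Bmp4 like Arhgef3 and Dennd2a (r = 0.92 each). Bmp2 had Zfp40 (r = 0.92), Nr3c1, the glucocorticoid receptor (r = 0.91), and Col4a5 (r = 0.90). Bmp5 had the lowest values, with Unc13c (r = 0.86), Dab2 and Adck5 (r = 0.85 each). Among the ligands themselves, Bmp4 and Bmp7 ran most alike (r = 0.88), Gdf5 ran with Bmp6 (r = 0.78) and Bmp7 (r = 0.76), and Gdf5 and Gdf10 ran opposite (r = -0.77).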

How the data were processed

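RNA of laser-captured IVD and vertebrae was hybridised by the authors to Affymetrix mouse arrays after 2 rounds of amplification. The values they deposited are log2 signals from RMA, run with GeneSpring's defaults, and were centred so that the median of each probe set across the 13 arrays is 0. Absolute levels were lost in this step and signal over background cannot be given, so precision depends on how many arrays there are. A filter on dim probe sets could not be run for this reason.

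After 64 control probe sets were left out, a model of the 4 groups was fitted to 45037 probe sets with limma 3.58.1 (lmFit and eBayes) in R 4.3.3, with Benjamini-Hochberg adjustment over the whole table. Tables were made with Python 3.11.15. In the array's annotation 34945 probe sets had 1 gene name, 932 several and 9160 none, which gave 18193 genes. Members, lists and tests were chosen with earlier results of these data known. All ligand probe sets are named. From each pathway list the text draws on genes past a threshold and, in 2 comparisons, on those with the smallest p, and for each ligand it names the 3 genes with the highest r.

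Control arrays of the same number were treated as 1 mouse in the blocked fits. The labels state shared mice but not which numbers share one. With group means removed, the same-number control arrays correlated with r = 0.80, 0.57 and 0.57 across probe sets, and the mutant ones with r = -0.40, 0.24 and -0.15. The consensus correlation, fitted on the control arrays only, was 0.54. Separate embryos are stated as biological replicates. Alternatives were a fit of the compared groups alone, the unequal variance test of the methods, quantile normalization, robust variance estimation, array weights, blocks, leaving out arrays, and gene means. The fitting code was checked on simulated data.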

Additional observations from a re-analysis of the deposited data

Results flagged for a closer look

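Bmp6 was picked out for a difference between the tissues in the effect of the genotype, over the 11 ligand probe sets. All 4 mutant IVD arrays lay below the control IVD mean of 0.87, and all 3 mutant vertebrae arrays lay above the control vertebrae mean of -0.45. The log2 interaction was -1.215 (standard error 0.40, adjusted p = 1 in limma), so the difference between the tissues did not pass the test. It ranged from -1.60 to -0.92 over the alternatives. None of the 11 ligand probe sets had a mutant IVD array that stood apart from the other 3 by Dixon's criterion, and groups of 3 arrays were not checked.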

How the results depend on the processing

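Of the 55 ligand differences, 15 were at least 2-fold or had an unadjusted p under 0.05, and none of these 15 turned its sign under any alternative. Of the other 40, 22 did under at least 1. The 15 were picked by size or p in the same data, so their steadier sign is no independent support. The fit of the compared groups alone, the unequal variance test and robust variance estimation leave a difference unchanged, and could not turn a sign. Counts of ligand probe sets moved as follows, and the cause was not tested where an alternative does not show it. At an adjusted p under 0.05, control IVD against control vertebrae went from 0 to 1, Gdf5, with the mouse as a random and as a fixed replicate block. These fits also left out the mutant arrays. In limma on the control arrays alone, without a block, the adjusted p of Gdf5 was 0.247. The blocked fits changed no other adjusted call among the ligands. By the study's threshold these blocks added Gdf10, from 2 to 3, where 1.29% and 1.32% of all probe sets passed against 0.87% without a block. Mutant IVD against mutant vertebrae went from 0 to 1 without the 4 liver-bearing arrays (Gdf5), and from 0 to 1 over single arrays left out, with 1 without mutant IVD 3 (Bmp7), while calls over the whole array went from 7 to 29 and 177. By the study's threshold, control IVD against control vertebrae went from 2 to 1 in the unequal variance test, where Bmp6 missed it. It went to 4 without the liver-bearing arrays and ranged from 2 to 4 over arrays left out. The share of all probe sets went from 0.87% to 0.568% and 1.48%, and ranged from 0.655% to 1.78% over arrays left out. Mutant against control IVD went from 0 to 2 with quantile normalization, 3 with array weights, 2 with the array number as a replicate block and 4 without the liver-bearing arrays, and 0 to 4 over arrays left out, highest without control IVD 1. The share of all probe sets past it also rose in the same 4 settings, from 0.644% to between 0.81% and 1.33%. Over arrays left out this share ranged from 0.466% to 1.19%, highest without control IVD 1. Mutant against control vertebrae went from 1 to 0 in the unequal variance test, with 0 to 1 over arrays left out. The share of all probe sets went from 0.517% to 0.122%, and ranged from 0.442% to 1.19% over arrays left out. Mutant IVD against mutant vertebrae ranged from 1, without mutant vertebrae 2, to 4 over arrays left out. The share of all probe sets ranged from 2.24% to 3.84% over these fits, against 2.58% with all arrays. Between the mutant tissues Gdf5 missed the threshold in the fit of the compared groups alone, in the unequal variance test and without mutant IVD 1, mutant IVD 2, mutant vertebrae 2 or mutant vertebrae 3. The interaction went from 1 to 2, with Bmp5 1455851_at added, under quantile normalization, under the array-number block and without the liver-bearing arrays, and ranged from 0 to 2 over arrays left out. In these 3 settings 0.753%, 0.773% and 0.908% of all probe sets passed, against 0.588% in the fit of all arrays without a block. Over arrays left out 0.384% to 1.29% passed. The interaction was not run for the compared groups alone or by the unequal variance test. Over all probe sets, array weights took the adjusted calls between the mutant tissues from 7 to 55, and the unequal variance test took them to 0, with 1877 at an unadjusted p under 0.05.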
